A study of Mus musculus with 20 samples.

Results

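Replication-dependent histone genes encode the bulk histones that package newly copied DNA. The genes of this group were found as the array's gene names that begin with Hist1h, Hist2h, Hist3h or Hist4h, which are names for places in the genome's histone gene clusters. This gave 36 of 27827 gene names, measured by 46 of 41174 probes. By name, 6 of these genes belong to the linker histone H1, 11 to H2A, 10 to H2B, 3 to H3 and 6 to H4. RefSeq lists 2 of the 36, Hist1h2al and Hist3h2bb, as transcribed pseudogenes. No measured level entered this choice by name, which was made with earlier results of these data known.

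Kidney RNA of male C57BL/6 mice aged 8 to 12 weeks was measured in 5 groups of 4 arrays. The IRI group had 45 min of ischemia, with both renal pedicles clamped, and then 6 h of reperfusion. The IRI+Hemin group received Hemin, an inducer of heme oxygenase 1, at 25 mg/kg into the peritoneum 24 h before the same surgery. The IPC+IRI group was preconditioned by 15 min of ischemia of both kidneys 7 days before the same injury. The Hemin group received only the drug, and the Control group had neither surgery nor drug. No sham-operated group was among the samples, so clamping was not set against the operation alone. The labels do not say whether the 4 arrays of a group came from separate animals, so the p-values measure the spread between these arrays, which may be technical.

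Core histones H2A, H2B, H3 and H4 form the nucleosome, around which DNA is wound, and H1 binds the linker DNA between nucleosomes. Their genes lie in clusters of nearly identical, intronless copies. In dividing cells the genes are switched on in S phase by Npat, and their mRNAs end in a stem-loop in place of a poly(A) tail. That end is cut with the help of the stem-loop binding protein Slbp and of the U7 particle, which holds Lsm10 and Lsm11. Some of these genes also give polyadenylated mRNA, mostly in cells that do not divide. The variant histones, such as H3.3 from H3f3a and H3f3b, are made throughout the cell cycle from polyadenylated mRNA. RNA was labelled here from an oligo-dT primer, which starts at poly(A), so a histone mRNA with a stem-loop end is not a regular template of this labelling.

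Every level below is the log2 of a gene's signal over the 75th percentile of its array, so 0 lies at that percentile and a difference of 1 is a doubling. A level depends on its probe, so levels are compared between arrays and not between genes. The 75th percentile of an array lay between 147 and 358 intensity units, and 57.4% to 67.4% of all genes were well above background. All 6 proximal tubule markers and all 4 markers of the thick limb and distal tubule were well above background on every array. The 4 arrays of a group shared a slide that held no other group, so group and slide cannot be told apart. Control and IRI were scanned on the same day, IPC+IRI and Hemin on another, and IRI+Hemin on a day of its own, so in the other comparisons group and scan day cannot be told apart either.

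Of the 36 genes, 24 were well above background on all 20 arrays, made up of 2 H1, 7 H2A, 7 H2B, 2 H3 and 6 H4 genes. Another 7 genes reached that level on some arrays only. The other 5, Hist1h2ac, Hist1h2ae, Hist1h2be, Hist2h2bb and Hist1h3a, reached it on no array. The H3 class is therefore described by 2 genes, Hist1h3d and Hist2h3c1. No spot of these genes was saturated or marked as faulty.

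The probe sequences show how far the copies can be told apart. Of the 46 probes, 14 list several RefSeq transcripts in the array annotation, 23 list 1 and 9 list none. Runs of 20 or more shared bases join 11 genes into 3 groups. The largest of these runs in the clustered H2B and H4 genes are shown with the shared bases in capitals, together with the H3 pair that leads the results below. Each probe is 5′ to 3′, with its position in mouse build mm9 as the array files give it. Hist1h4d lies at chr13:23673665-23673724 (+), Hist1h4f at chr13:23643249-23643308 (-), Hist1h2bk at chr13:22127928-22127987 (+), Hist1h2bm at chr13:21814139-21814198 (+), Hist1h3d at chr13:23667979-23668038 (+) and Hist2h3c1 at chr3:96051157-96051216 (+).
Hist1h4d: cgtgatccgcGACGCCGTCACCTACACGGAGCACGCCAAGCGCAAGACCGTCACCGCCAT
Hist1h4f: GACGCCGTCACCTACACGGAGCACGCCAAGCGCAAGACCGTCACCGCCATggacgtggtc
Hist1h2bk: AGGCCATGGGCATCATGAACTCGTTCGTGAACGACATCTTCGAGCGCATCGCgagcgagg
Hist1h2bm: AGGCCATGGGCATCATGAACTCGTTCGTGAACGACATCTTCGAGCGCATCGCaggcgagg
Hist1h3d: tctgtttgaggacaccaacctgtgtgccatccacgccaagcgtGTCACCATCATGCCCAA
Hist2h3c1: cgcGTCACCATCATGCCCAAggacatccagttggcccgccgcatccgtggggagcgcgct

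The H4 pair shares a run of 50 bases and the H2B pair a run of 52, and a probe of either pair can bind RNA of the other gene. The H3 probes share only 17 bases in a row, but each of them lists 4 RefSeq transcripts, so neither is tied to a single H3 gene. Values of such genes are therefore not independent of each other.

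Stem-loop letters were found in 2 of the 46 probes, those of Hist1h2ae and Hist1h3a, against 83 of all 41174 probes (0.202%). The letters searched, CTTTTCAG, run from the end of the first arm through the loop into the start of the second arm of the histone stem-loop, and are in capitals in the 30 bases shown. The probes lie at chr13:23662489-23662548 (-) and chr13:23853756-23853815 (-) in mm9, and both were well above background on 0 of 20 arrays.
Hist1h2ae: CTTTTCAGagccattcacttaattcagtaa
Hist1h3a: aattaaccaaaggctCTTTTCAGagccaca

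The calls among the histone genes held 2 patterns. The H3 genes Hist1h3d and Hist2h3c1 and the linker gene Hist1h1c rose in both ischemia groups that were tested against Control. Most H4 genes and the H2B genes Hist2h2be and Hist3h2ba fell in IRI vs Control, and these genes were higher than IRI after preconditioning and after Hemin. In IRI vs Control, 3 of 27 tested genes rose (11.1%), against 17.1% of all 17711 genes tested, and 11 fell (40.7%), against 33.9%. The median difference over the histone genes was -0.44 on the log2 scale, beside -0.17 over all genes. The share that fell was near that of all genes and is not a result about the histone genes as a group, so single genes are described. Of the 11, Hist1h2al was well above background on no IRI array. With normexp background correction, 3 genes fell in place of 11, and the calls of Hist2h2be and Hist4h4 in IRI+Hemin vs IRI were lost. In bulk RNA, fewer cells of a type and less RNA per cell cannot be told apart, here and in each comparison below.

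Most tested histone genes were higher in IPC+IRI and in IRI+Hemin than in IRI. In IPC+IRI vs IRI, 23 of 29 tested genes rose (79.3%), against 26.3% of all genes, and 0 fell, against 17.9%. At an unadjusted p under 0.05, 27 of the 29 were higher and 0 lower in the same limma fit, against 30.8% and 21.2% of all genes. In IRI+Hemin vs IRI, 18 of 28 rose (64.3%), against 26.3% of all genes, and 0 fell, against 18.1%. There 19 were higher and 0 lower at an unadjusted p under 0.05, against 30.7% and 21.3%. Of the called genes, 4 in IPC+IRI vs IRI (Hist1h1b, Hist1h1d, Hist1h1t and Hist1h2ab) and 2 in IRI+Hemin vs IRI (Hist1h1b and Hist1h1t) were well above background on no IRI array and were tested only through the other group, and with normexp these 6 differences were negative. Over genes well above background on all 8 compared arrays, 21 of 24 rose in IPC+IRI vs IRI (87.5%), against 25.1% of all genes, and 16 of 24 in IRI+Hemin vs IRI (66.7%), against 25.7%. In these counts 0 fell, against 19.5% and 19.4%. The medians over the histone genes were 0.87 and 0.94, and those over all genes were 0.09 and 0.08. Both comparisons use the same 4 IRI arrays, as does IRI vs Control.

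Against Control, 18 of 30 histone genes rose in IPC+IRI (60%), beside 23.3% of all genes, and 1 fell, beside 32.7%. In Hemin vs Control, 15 of 29 rose (51.7%), beside 18.5% of all genes, and 1 fell, beside 17.6%. The medians were 0.58 and 0.57, and the medians of all genes were -0.09 and 0.06. These comparisons share the 4 Control arrays with IRI vs Control. The counts higher than Control depended on the settings. They were 10 in IPC+IRI vs Control when only the 8 compared arrays were fitted and 9 without IPC+IRI replicate 3, and in Hemin vs Control 9 with normexp and 26 without scaling. Without scaling the median of all genes in Hemin vs Control was 0.62. No share of all genes is set beside these counts, so they are not results about the histone genes. One of the genes higher in either comparison, Hist1h1t, was well above background on no Control array. The gene that fell in both was Hist1h2al, which RefSeq now lists as a transcribed pseudogene.

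IPC+IRI and Hemin, the other pair scanned on 1 day, were also compared. Of 30 tested, 3 were higher in IPC+IRI (10%), against 13.2% of all genes, and 2 were lower, against 22.8%. The median difference was -0.02. The 3 higher genes were Hist1h1c, Hist1h3d and Hist2h3c1, and the 2 lower ones were Hist2h2be and Hist3h2ba. The number lower grew to 5, of which 3 were H4 genes, without Control replicate 2, against 24.5% of all genes, and to 6 in a fit of the 8 compared arrays. The call of Hist3h2ba was lost in 6 of 32 alternatives, with normexp (adjusted p = 0.243) and without IPC+IRI replicate 1, 2 or 4 or Hemin replicate 1 or 4 (adjusted p from 0.0504 to 0.0933).

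The difference between IRI+Hemin and Hemin was also set against that between IRI and Control. The interaction passed in 2 of 29 histone genes, both positive (6.9%), against 5.83% of all 19058 genes tested, and 0 were negative, against 1.96%. The genes were Hist1h1b and Hist1h2al, both well above background on no IRI array, so the sizes of their interactions were not measured.

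Called differences of 2-fold or more were counted over genes well above background on all 8 compared arrays, since a gene that is not above background in 1 group has only a bound. In IPC+IRI vs IRI 10 histone genes of 24 were higher and 0 lower, against 4.52% and 4.06% of all genes. In IRI+Hemin vs IRI 10 of 24 were higher and 0 lower, against 4.69% and 4.34%. IPC+IRI vs Control gave 6 higher and 0 lower of 25, against 6.42% and 10.4%, and Hemin vs Control 1 higher and 0 lower of 26, against 1.34% and 4.45%. IRI vs Control gave 2 higher and 1 lower of 24, against 5.47% and 8.44%, and IPC+IRI vs Hemin 3 higher and 0 lower of 27, against 4.49% and 3.65%.

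**Figure D1:**
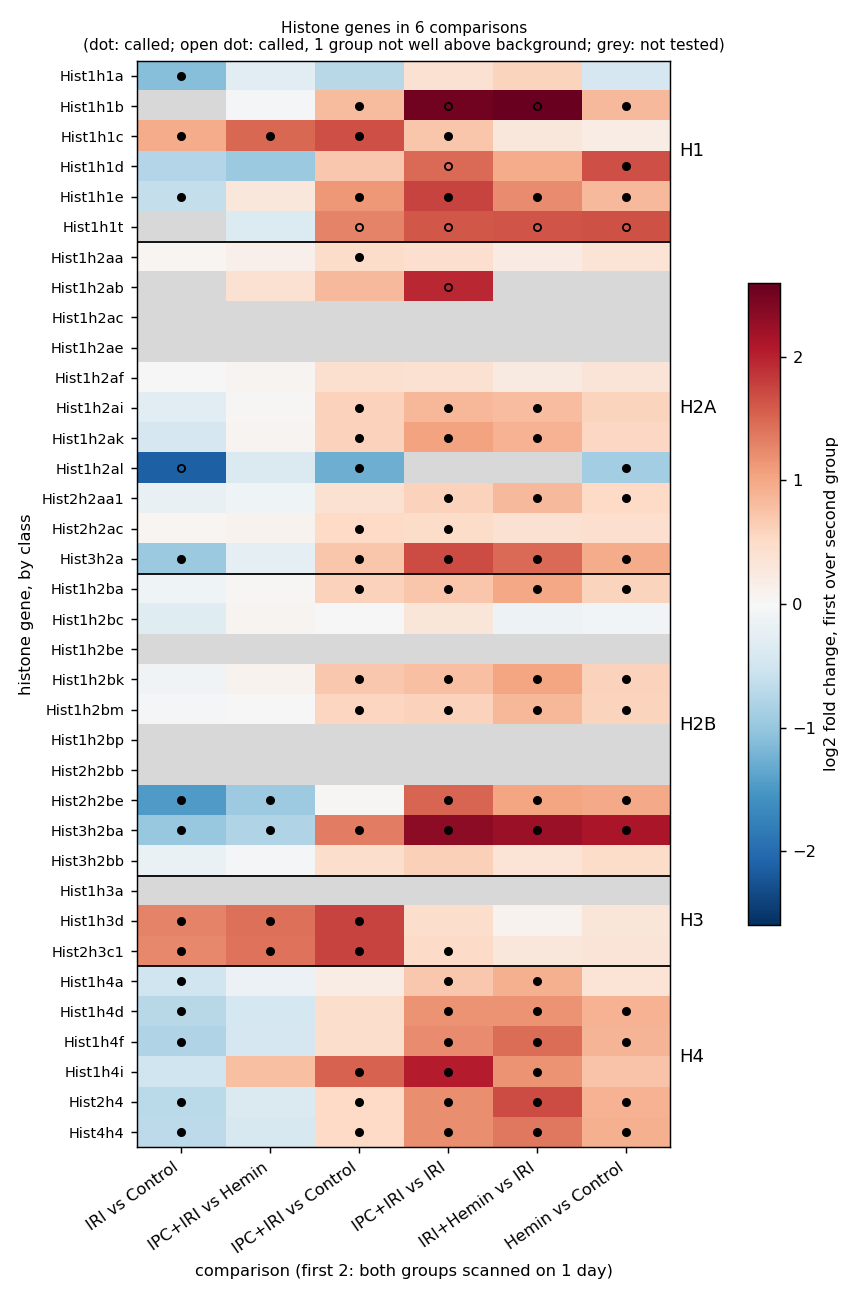
Differences in log2 level of the histone genes (rows, by class) in the 6 comparisons (columns), with colour running from lower to higher in the first-named group and dots on genes called at an adjusted p below 0.05; open dots mark called genes that in 1 group were well above background on no array. The 2 columns against IRI hold 23 and 18 genes called higher and 0 called lower, while IRI vs Control holds 3 higher and 11 lower.

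Hist1h3d, a core H3 gene, was higher in all groups with ischemia than in Control and Hemin. Its log2 levels were 3.41, 3.60, 3.47 and 3.42 in Control replicates 1 to 4, 4.33, 5.11, 4.71 and 4.91 in IRI, 4.99, 4.72, 4.54 and 5.17 in IRI+Hemin, 5.62, 4.99, 5.47 and 4.83 in IPC+IRI and 3.89, 3.93, 3.55 and 3.79 in Hemin. All 12 arrays of the 3 ischemia groups lay above all 8 Control and Hemin arrays, and Control replicate 2 lay with the other Controls. The mean was 3.47 ± 0.09 in Control and 4.76 ± 0.33 in IRI (SD, n = 4), a difference of 1.29 (SE 0.19, adjusted p = 2.12e-05), or 2.45-fold, by limma with Benjamini-Hochberg adjustment. The difference was 1.75 (SE 0.19, adjusted p = 9.56e-07) in IPC+IRI vs Control and 1.44 (SE 0.19, adjusted p = 1.87e-05) in IPC+IRI vs Hemin.

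Hist2h3c1, the H3 gene of the chromosome 3 cluster, gave nearly the same picture. Its levels were 4.12, 4.20, 3.90 and 4.0 in Control replicates 1 to 4, 5.0, 5.64, 5.25 and 5.34 in IRI, 5.74, 5.46, 5.32 and 5.89 in IRI+Hemin, 6.16, 5.64, 6.09 and 5.34 in IPC+IRI and 4.44, 4.45, 4.09 and 4.58 in Hemin. Again every ischemia array lay above every Control and Hemin array. It rose 2.39-fold in IRI vs Control, by 1.25 (SE 0.18, adjusted p = 2.33e-05) on the log2 scale, and 3.37-fold in IPC+IRI vs Control, by 1.75 (SE 0.18, adjusted p = 7.61e-07). IPC+IRI exceeded IRI by 0.50 (SE 0.18, adjusted p = 0.0341), with overlapping arrays. That call was lost in 9 of 31 alternatives, among them the replicate block (adjusted p = 0.0503), quantile normalization (adjusted p = 0.0588), a fit of only the 8 compared arrays (the 8-array fit, adjusted p = 0.0937) and the omission of any 1 of 5 arrays, IRI replicates 1, 3 and 4 and IPC+IRI replicates 1 and 3 (adjusted p from 0.0522 to 0.112). For Hist1h3d the same difference was 0.46 (SE 0.19, adjusted p = 0.0526), which missed the threshold. Neither H3 gene was called in IRI+Hemin vs IRI, with 0.09 (adjusted p = 0.721) for Hist1h3d and 0.29 (adjusted p = 0.202) for Hist2h3c1.

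Hist1h1c encodes a linker histone that many non-dividing tissues express. Its levels were 3.77, 3.63, 3.37 and 3.73 in Control replicates 1 to 4, 4.5, 4.86, 4.59 and 4.38 in IRI, 4.80, 4.92, 4.89 and 4.93 in IRI+Hemin, 5.44, 5.14, 5.34 and 5.27 in IPC+IRI and 4.15, 3.48, 3.73 and 3.89 in Hemin. The ischemia arrays again all lay above the Control and Hemin arrays, and the IPC+IRI arrays lay above all the other ischemia arrays. Hist1h1c rose 1.94-fold in IRI vs Control, a difference of 0.96 (SE 0.14, adjusted p = 1.85e-05), and 3.18-fold in IPC+IRI vs Control, a difference of 1.67 (SE 0.14, adjusted p = 5.8e-08). It was also higher in IPC+IRI than in IRI, by 0.71 (SE 0.14, adjusted p = 0.000481), while IRI+Hemin vs IRI gave 0.30 (SE 0.14, adjusted p = 0.0827). Hemin alone gave 0.19 (SE 0.14, adjusted p = 0.3) against Control.

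Markers of other cell types were counted beside these genes. Of 4 neutrophil markers on the array, the 2 tested in IRI vs Control rose, against 17.1% of all genes, and the 3 tested in IPC+IRI vs Control rose, against 23.3%. The summed log2 level of the 4 ran from -2.27 to -0.86 in Control, 1.28 to 3.01 in IRI, 1.07 to 3.23 in IRI+Hemin, 2.65 to 4.26 in IPC+IRI and -1.27 to 0.62 in Hemin, and 2 of the 4 were well above background on no Control array. Of 5 macrophage markers, 2 rose in IRI vs Control and 3 in IPC+IRI vs Control, against the same shares, with sums of 1.79 to 2.44 in Control, 2.70 to 3.18 in IRI, 2.90 to 3.61 in IRI+Hemin, 2.77 to 4.61 in IPC+IRI and 2.11 to 2.42 in Hemin. In IRI vs Control, 3 of 5 T cell markers, 3 of 3 B cell markers and 3 of 3 germ cell markers tested fell and 0 rose, against 33.9% of all genes lower, and in IPC+IRI vs Control 2 of 5, 3 of 3 and 3 of 3 fell and 0 rose, against 32.7%. In IPC+IRI vs IRI, 3 of 4 endothelial and 3 of 3 erythroid markers fell and 0 rose, 2 of 6 proximal tubule markers fell and 0 rose, 2 of 5 macrophage markers rose and 1 fell, and 2 of 5 T cell markers rose and 0 fell, against 26.3% of all genes higher and 17.9% lower. In IRI+Hemin vs IRI, 2 of 4 collecting duct, 1 of 6 proximal tubule and 1 of 4 endothelial markers rose. In each of these lists 1 fell. There 1 of 4 podocyte and 1 of 3 germ cell markers rose and 0 fell. The thick limb and distal tubule, T cell and B cell markers had 1 lower and 0 higher of 4, 5 and 2 tested. Neutrophil, macrophage and erythroid markers had 0 called. Of all genes, 26.3% were higher and 18.1% lower there. Of 4 collecting duct markers, 3 rose and 0 fell in IPC+IRI vs Control. Of 4 podocyte markers, 2 fell and 0 rose in IRI vs Control and also in IPC+IRI vs Control. In Hemin vs Control 2 of 3 B cell and 2 of 3 germ cell markers fell and 0 rose, against 17.6% of all genes lower. In IPC+IRI vs Hemin 3 of 3 neutrophil and 3 of 5 macrophage markers rose and 0 fell, against 13.2% of all genes higher. The summed level of the erythroid markers ran from 6.25 to 6.6 in IRI and from 3.41 to 5.76 in IPC+IRI. The part of these cells in the histone levels was not tested.

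**Figure D2:**
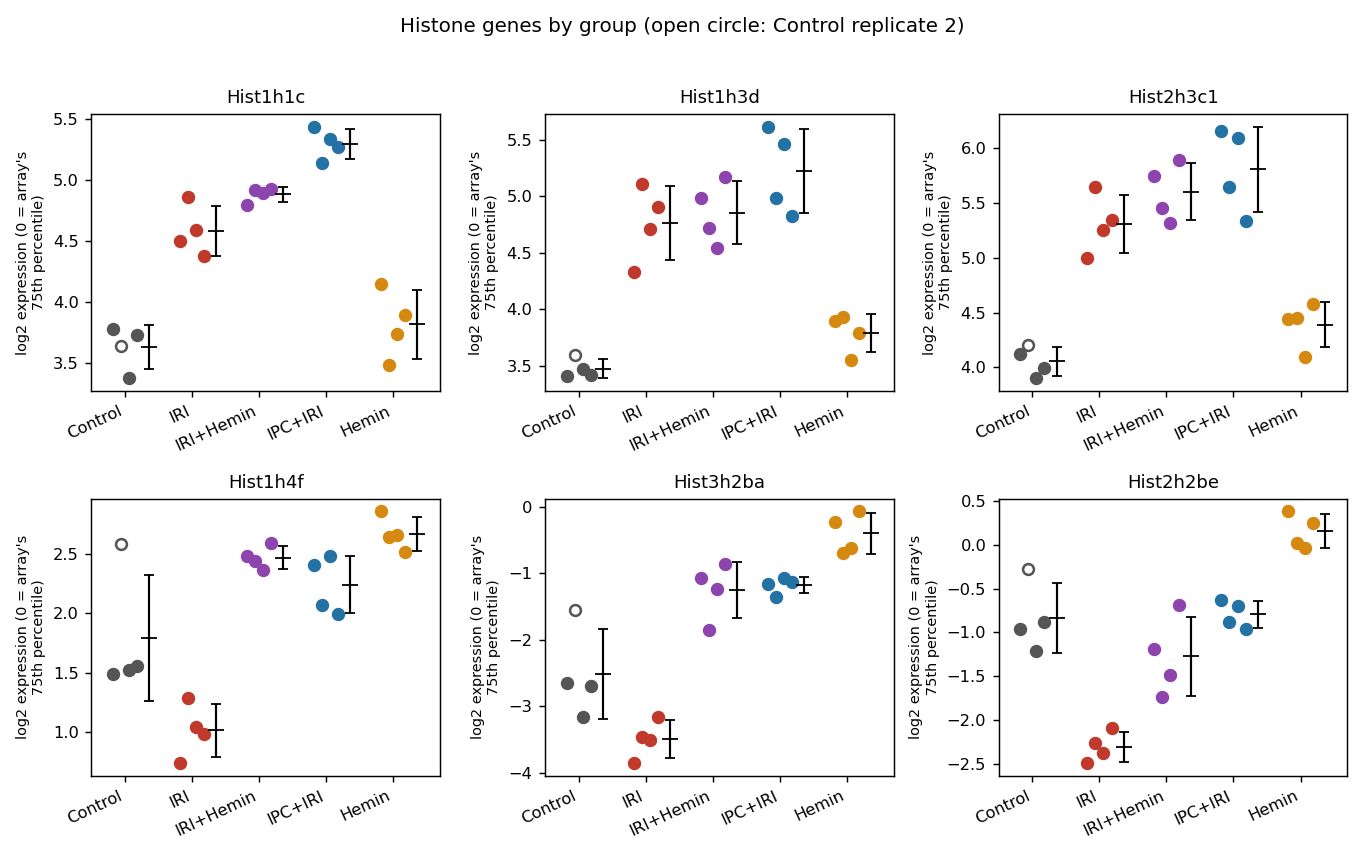
Log2 level (0 at the 75th percentile of the array) of 6 histone genes on each of the 20 arrays, in panels by gene with the 5 groups on the x axis; points are arrays, bars are the mean and SD of 4 arrays, and the open circle is Control replicate 2. In the panels of Hist1h3d, Hist2h3c1 and Hist1h1c the 12 ischemia arrays sit above the 8 Control and Hemin arrays, while in the panels of Hist1h4f and Hist2h2be the 4 IRI arrays are the lowest.

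The other linker genes did not share the pattern of Hist1h1c. Hist1h1e had levels of -1.56, -1.49, -1.59 and -1.48 in Control replicates 1 to 4, -2.70, -1.36, -1.85 and -2.70 in IRI, -0.44, -1.11, -1.02 and -1.09 in IRI+Hemin, -0.38, -0.73, -0.09 and -0.38 in IPC+IRI and -0.42, -0.66, -1.13 and -0.56 in Hemin. The IPC+IRI arrays lay above all Control and IRI arrays, and the IRI arrays were widely spread and overlapped Control. Its difference was -0.62 (SE 0.25, adjusted p = 0.0453) in IRI vs Control, 1.76 (SE 0.25, adjusted p = 4.33e-05) in IPC+IRI vs IRI and 1.23 (SE 0.25, adjusted p = 0.000771) in IRI+Hemin vs IRI. The IRI vs Control call was lost in 19 of 32 alternatives, among them the replicate block (adjusted p = 0.067), normexp (-0.10, adjusted p = 0.81) and the omission of any 1 Control array or of IRI replicate 1 or 4 (adjusted p from 0.0656 to 0.163). The call in IRI+Hemin vs IRI was lost with normexp (0.40, adjusted p = 0.0841) and with the deposited matrix (adjusted p = 0.078).

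Hist1h1b, a linker gene of dividing cells, was well above background on 0 of 4 IRI arrays, so IRI gives only a bound. It was at least 1.56-fold higher in IPC+IRI (adjusted p = 5.87e-06 in limma) and at least 1.64-fold higher in IRI+Hemin (adjusted p = 3.01e-06). Its levels ran from -4.52 to -3.43 in IPC+IRI, -4.46 to -3.50 in IRI+Hemin, -4.34 to -3.78 in Hemin and -5.40 to -4.18 in Control. The signals in IRI, -6.89 to -6.09, lay below all of them but were not well above background. An adjusted p beside a bound, here and below, is that of the fitted difference. It rests on such signals and does not test the bound. Hist1h1d was at least 1.57-fold higher in IPC+IRI than in IRI (adjusted p = 0.0307), and in Hemin its 4 arrays were spread over -1.53, -4.0, -4.67 and -1.99. Hist1h1t, the linker histone of the testis, was at least 1.07-fold higher in Hemin than in Control (adjusted p = 0.00562). With normexp the fitted differences of these dim genes turned, to -0.22 for Hist1h1b and -0.30 for Hist1h1d in IPC+IRI vs IRI and to -0.23 for Hist1h1t in Hemin vs Control. The Hist1h1d call was also lost with quantile normalization, with the deposited matrix and without IRI replicate 1 or 3 or IPC+IRI replicate 1, 2 or 4 (adjusted p from 0.0521 to 0.0886). Hist1h1a, dim throughout at -4.95 to -2.87, fell by 1.11 on the log2 scale in IRI vs Control (SE 0.34, adjusted p = 0.0112). Only 2 of 4 IRI arrays had it well above background, and with normexp that call was lost (0.00, adjusted p = 0.999).

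The H4 genes, whose proteins are identical products of many copies, moved in 1 direction in both comparisons against IRI. In IRI vs Control 5 of 6 fell and 0 rose, with a median of -0.69, against 33.9% and 17.1% of all genes. Without Control replicate 2 it was 4 of 6, with a median of -0.41, and with normexp 1 of 6, Hist1h4f, with a median of -0.43. All 6 were higher in IPC+IRI vs IRI, with a median of 1.21, and all 6 in IRI+Hemin vs IRI, with a median of 1.27, against 26.3% of all genes in either comparison, although Hist4h4 was called in neither with normexp. Since the probes of Hist1h4a, Hist1h4d, Hist1h4f and Hist2h4 share long runs of bases, these are not 6 separate measurements.

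Hist1h4f had log2 levels of 1.49, 2.58, 1.52 and 1.56 in Control replicates 1 to 4, 0.74, 1.29, 1.05 and 0.98 in IRI, 2.48, 2.44, 2.36 and 2.59 in IRI+Hemin, 2.41, 2.07, 2.48 and 1.99 in IPC+IRI and 2.86, 2.64, 2.65 and 2.51 in Hemin. The 4 IRI arrays were the lowest of all, and Control replicates 1, 3 and 4 came next, between 1.49 and 1.56. Control replicate 2, at 2.58, lay among the IRI+Hemin, IPC+IRI and Hemin arrays. The difference was -0.77 (SE 0.20, adjusted p = 0.0033) in IRI vs Control, 1.22 (SE 0.20, adjusted p = 0.000123) in IPC+IRI vs IRI and 1.45 (SE 0.20, adjusted p = 2.84e-05) in IRI+Hemin vs IRI. Hemin alone gave 0.88 (SE 0.20, adjusted p = 0.0027) against Control, and 1.14 (adjusted p = 1.03e-05) without Control replicate 2. Without that array the IRI vs Control difference shrank to -0.51 (adjusted p = 0.00531).

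Hist2h4, in the chromosome 3 cluster, ran at 0.05, 1.17, 0.12 and 0.05 in Control replicates 1 to 4, -0.69, -0.14, -0.21 and -0.34 in IRI, 1.24, 1.30, 1.2 and 1.64 in IRI+Hemin, 1.08, 0.72, 0.97 and 0.71 in IPC+IRI and 1.37, 1.34, 1.21 and 1.07 in Hemin. IRI was again below every other array, and Control replicate 2 was again within the range of the 3 treated groups. Its difference was -0.69 (SE 0.20, adjusted p = 0.00883) in IRI vs Control and 1.69 (SE 0.20, adjusted p = 1.03e-05) in IRI+Hemin vs IRI. IPC+IRI lay 0.52 above Control (adjusted p = 0.0372), or 0.90 for Hemin (adjusted p = 0.00289). The IPC+IRI vs Control call was lost in 8 of 31 alternatives, which were the deposited matrix, scaling to the 75th percentile of probes well above background, the 8-array fit and the omission of Control replicate 1, 3 or 4 or of IPC+IRI replicate 1 or 3 (adjusted p from 0.0726 to 0.117). Without Control replicate 2 the IRI vs Control difference shrank to -0.42 (adjusted p = 0.021) and that in IPC+IRI vs Control grew to 0.80 (adjusted p = 0.000157). The IRI vs Control call was lost with normexp (-0.47, adjusted p = 0.0688) and in the 8-array fit (adjusted p = 0.0521).

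Hist1h4i, whose only probe lists 0 RefSeq transcripts in the array annotation, differed from the other H4 genes in its highest group. Its levels were -0.62, 0.84, -0.26 and -0.16 in Control replicates 1 to 4, -0.84, -0.13, -0.57 and -0.72 in IRI, 0.56, 0.07, 0.10 and 1.73 in IRI+Hemin, 1.82, 1.14, 1.77 and 1.19 in IPC+IRI and 0.92, 0.71, 0.54 and 0.62 in Hemin. The IPC+IRI arrays lay above all Control and Hemin arrays, and IRI overlapped Control. It rose 2.88-fold in IPC+IRI vs Control, a difference of 1.53 (SE 0.33, adjusted p = 0.000776), and 4.12-fold in IPC+IRI vs IRI, a difference of 2.04 (SE 0.33, adjusted p = 0.000119). IRI vs Control gave -0.51 (SE 0.33, adjusted p = 0.203) and Hemin vs Control 0.75 (SE 0.33, adjusted p = 0.084), neither of which passed, and the second passed without Control replicate 2, at 1.04 (adjusted p = 0.0136). That array lay 1.19 above the mean of the other Controls, so the size in IRI vs Control depends on it as well.

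One of the 2 probes of Hist1h4d shares most of its bases with that of Hist1h4f, but the genes differed in IRI+Hemin, with 1.52, 0.25, 1.34 and 0.67 for Hist1h4d and 2.48, 2.44, 2.36 and 2.59 for Hist1h4f. On IRI+Hemin replicate 2 the sharing probe gave 0.83, within its range of 0.44 to 0.88 in IRI. Hist1h4d spread more than Hist1h4f in that group. Hist1h4d had -0.72 in IRI vs Control (adjusted p = 0.0277), and -0.44 (adjusted p = 0.117) without Control replicate 2. That call was lost in 5 of 32 alternatives, which were this one, the omission of IRI replicate 1 or 4 (adjusted p = 0.075 and 0.0569), no scaling (adjusted p = 0.168) and normexp (adjusted p = 0.19). Hist1h4d was higher than IRI by 1.17 (SE 0.26, adjusted p = 0.00156) in IPC+IRI and by 1.17 (SE 0.26, adjusted p = 0.0016) in IRI+Hemin. Its 2 probes gave 1.04 and 2.07 in the last comparison. Hist1h4a and Hist4h4 also fell in IRI vs Control, with -0.52 (adjusted p = 0.0113) and -0.69 (adjusted p = 0.0109), and rose in both comparisons against IRI, by 0.70 and 1.21 in IPC+IRI vs IRI. Control replicate 2 lay 0.67 and 1.13 above the mean of the other Controls in these genes, so their size in IRI vs Control depends on that array. With normexp the IRI vs Control call of Hist1h4a was lost (-0.39, adjusted p = 0.116). For Hist4h4 it was lost with normexp (-0.01, adjusted p = 0.983), the mean of log2 over probes (-0.37, adjusted p = 0.124), no scaling (adjusted p = 0.064) and the 8-array fit (adjusted p = 0.0681), and the IPC+IRI vs IRI call with normexp (0.09, adjusted p = 0.749) and the mean of log2 over probes (0.45, adjusted p = 0.075). With normexp its IRI+Hemin vs IRI call was lost as well (0.33, adjusted p = 0.182).

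Among the H2B genes, Hist2h2be and Hist3h2ba moved most. Hist2h2be encodes an H2B variant first described in olfactory neurons. Its levels were -0.96, -0.28, -1.21 and -0.88 in Control replicates 1 to 4, -2.49, -2.26, -2.38 and -2.09 in IRI, -1.19, -1.73, -1.48 and -0.69 in IRI+Hemin, -0.64, -0.88, -0.70 and -0.96 in IPC+IRI and 0.38, 0.02, -0.03 and 0.25 in Hemin. All IRI arrays lay below, and all Hemin arrays above, the arrays of every other group. The difference was -1.47 (SE 0.20, adjusted p = 1.42e-05) in IRI vs Control, 0.99 (SE 0.20, adjusted p = 0.0015) in Hemin vs Control and 1.51 (SE 0.20, adjusted p = 2.87e-05) in IPC+IRI vs IRI. In IRI+Hemin vs IRI it was 1.03 (SE 0.20, adjusted p = 0.000633), and with normexp that call was lost (0.21, adjusted p = 0.313). With normexp the difference also shrank to -0.67 in IRI vs Control and to 0.62 in IPC+IRI vs IRI, both still called. IPC+IRI vs Control gave 0.04 (SE 0.20, adjusted p = 0.89), and IPC+IRI differed from Hemin by -0.95 (SE 0.20, adjusted p = 0.00164).

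Hist3h2ba lies in the chromosome 11 cluster beside Hist3h2a. It measured -2.64, -1.56, -3.17 and -2.69 in Control replicates 1 to 4, -3.86, -3.47, -3.50 and -3.16 in IRI, -1.07, -1.85, -1.23 and -0.86 in IRI+Hemin, -1.16, -1.35, -1.07 and -1.13 in IPC+IRI and -0.22, -0.70, -0.62 and -0.06 in Hemin. Hemin held the 4 highest values, and Control replicate 2, at -1.56, was far above the other Controls. It was 4.98-fold higher in IPC+IRI than in IRI, a difference of 2.32 (SE 0.27, adjusted p = 9.5e-06), and 4.74-fold higher in IRI+Hemin than in IRI, a difference of 2.25 (SE 0.27, adjusted p = 1.01e-05). Hemin alone gave 2.12 (SE 0.27, adjusted p = 6.82e-05) against Control, and IRI gave -0.98 (SE 0.27, adjusted p = 0.00584). The last call was lost with normexp, at -0.02 (adjusted p = 0.98), and with quantile normalization, at -0.64 (adjusted p = 0.0691). With normexp the differences also shrank to 0.59 (adjusted p = 0.0657) in IPC+IRI vs IRI, 0.62 (adjusted p = 0.0468) in IRI+Hemin vs IRI and 1.01 (adjusted p = 0.00492) in Hemin vs Control.

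Hist1h2ba, the testis H2B gene, and the near-identical Hist1h2bk and Hist1h2bm rose against IRI and were not called in IRI vs Control. Hist1h2bk measured 2.91, 3.88, 2.95 and 2.92 in Control replicates 1 to 4, 2.83, 3.17, 3.09 and 3.22 in IRI, 4.06, 4.09, 3.89 and 4.32 in IRI+Hemin, 4.06, 3.66, 3.96 and 3.75 in IPC+IRI and 3.82, 3.90, 3.70 and 3.69 in Hemin. The Control arrays other than replicate 2 lay within the range of the IRI arrays, and replicate 2 lay within the range of the other 3 groups. It was higher by 0.78 (SE 0.18, adjusted p = 0.00205) in IPC+IRI vs IRI and by 1.02 (SE 0.18, adjusted p = 0.000248) in IRI+Hemin vs IRI, and IRI vs Control gave -0.09 (adjusted p = 0.71). Hist1h2bm and Hist1h2ba gave 0.61 and 0.71 in IPC+IRI vs IRI, with groups that did not overlap. Of the germ cell markers, Ddx4 was well above background on 1 of 20 arrays and Sycp3 on 0, while Prm1 and Tnp1 were on all 20.

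Hist1h2bc, a core H2B gene, was called in none of the 6 comparisons. Its 20 levels stayed between 3.82 and 4.91, and its differences ran from -0.32 in IRI vs Control (adjusted p = 0.0986) to 0.32 in IPC+IRI vs IRI (adjusted p = 0.111). Hist3h2bb, a transcribed pseudogene in RefSeq, was not called either. Hist1h2bp was dim and could not be tested.

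Of 8 H2A genes tested in IRI vs Control, 0 rose, against 17.1% of all genes, and 2 fell (25%), against 33.9%, and the median was -0.24, or 0.01 without Control replicate 2. These shares are not a result about the H2A genes. In Hist3h2a the IRI arrays stood apart, with levels of 1.81, 2.96, 1.84 and 1.73 in Control replicates 1 to 4, 0.79, 1.23, 1.27 and 1.23 in IRI, 2.51, 2.28, 2.2 and 3.38 in IRI+Hemin, 3.13, 2.48, 2.92 and 2.73 in IPC+IRI and 3.16, 3.05, 2.90 and 3.1 in Hemin. Every IRI array lay below every other array, and Control replicate 2 was at 2.96, beside 1.73 to 1.84 in the other Controls. The difference was -0.96 (SE 0.26, adjusted p = 0.00547) in IRI vs Control, 1.69 (SE 0.26, adjusted p = 8.67e-05) in IPC+IRI vs IRI and 1.47 (SE 0.26, adjusted p = 0.000278) in IRI+Hemin vs IRI. Its 2 probes gave 1.02 and 0.16 in IPC+IRI vs Control, 1.75 and 0.55 in IRI+Hemin vs IRI and -0.76 and -1.34 in IRI vs Control, so the size of these differences depends on the probe.

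Hist1h2al was the other H2A gene to fall, and its Control arrays lay above those of every other group. It had -2.85, -3.47, -3.81 and -3.95 in Control and -5.73, -5.30, -5.80 and -5.72 in IRI, where it was well above background on 0 arrays. It was at least 2.27-fold lower in IRI (adjusted p = 5e-06), and IPC+IRI vs Control gave -1.28 (adjusted p = 0.000578). With normexp these calls were lost, at -0.04 (adjusted p = 0.958) and -0.45 (adjusted p = 0.161).

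Hist1h2aa, a testis H2A gene, ran from 4.59 to 5.63 over the 20 arrays, and only IPC+IRI vs Control was called, with 0.49 (SE 0.17, adjusted p = 0.023). That call was lost in 8 of 31 alternatives, which were normexp, the deposited matrix, the 8-array fit and the omission of Control replicate 1, 3 or 4 or of IPC+IRI replicate 1 or 3 (adjusted p from 0.0558 to 0.0818). Its probe shares 44 bases with that of Hist1h2af, which was called in no comparison. Hist2h2ac was called higher in IPC+IRI vs Control, by 0.52 (SE 0.19, adjusted p = 0.0253), and in IPC+IRI vs IRI, by 0.48 (SE 0.19, adjusted p = 0.0461). The 2 probes of Hist1h2af went apart in IRI vs Control, at 0.03 and -0.91. Hist1h2ai and Hist1h2ak rose in both comparisons against IRI, by 0.87 and 1.04 in IPC+IRI vs IRI and by 0.80 and 0.91 in IRI+Hemin vs IRI. Hist2h2aa1 rose by 0.84 in IRI+Hemin vs IRI (adjusted p = 0.00101), but its dim probes gave -1.07 and -1.03 against 0.95 on the bright probe. With normexp that call was lost (0.32, adjusted p = 0.155). Hist1h2ab was at least 1.16-fold higher in IPC+IRI than in IRI (adjusted p = 0.000408), and with normexp its fitted difference was -0.32.

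In most histone genes, Control replicate 2 was the highest of the 4 Control arrays. It lay above all 3 other Controls in 21 of the 24 genes measured well above background on all arrays, beside 43.5% of 14527 genes of all kinds. Each other Control array lay above the rest in 1 of the 24, beside 13.7% to 26.5% of all genes. The 3 genes in which it did not were Hist1h1c, Hist1h1e and Hist1h2bc. Its excess over the mean of the other Controls ran from 0.17 to 1.28 in the 21 genes, and was largest in Hist3h2ba. The labels give no reason for a difference of this array.

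Without Control replicate 2, the counts of genes higher than Control grew. IPC+IRI vs Control then had 25 of 30 tested genes higher and 1 lower, against 25.9% and 31.4% of all genes, and Hemin vs Control 23 of 29 higher and 1 lower, against 22.7% and 18.5%. IRI vs Control had 3 higher and 9 lower of 26, against 17.6% and 31.6%, and its median moved to -0.19. The medians of the H2A and H2B genes there turned from -0.24 to 0.01 and from -0.16 to 0.07. By class, all 6 H4 genes then rose in IPC+IRI vs Control and in Hemin vs Control, in place of 3 and 4. The calls of Hist1h3d, Hist2h3c1 and Hist1h1c were the same with and without this array.

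**Figure D3:**
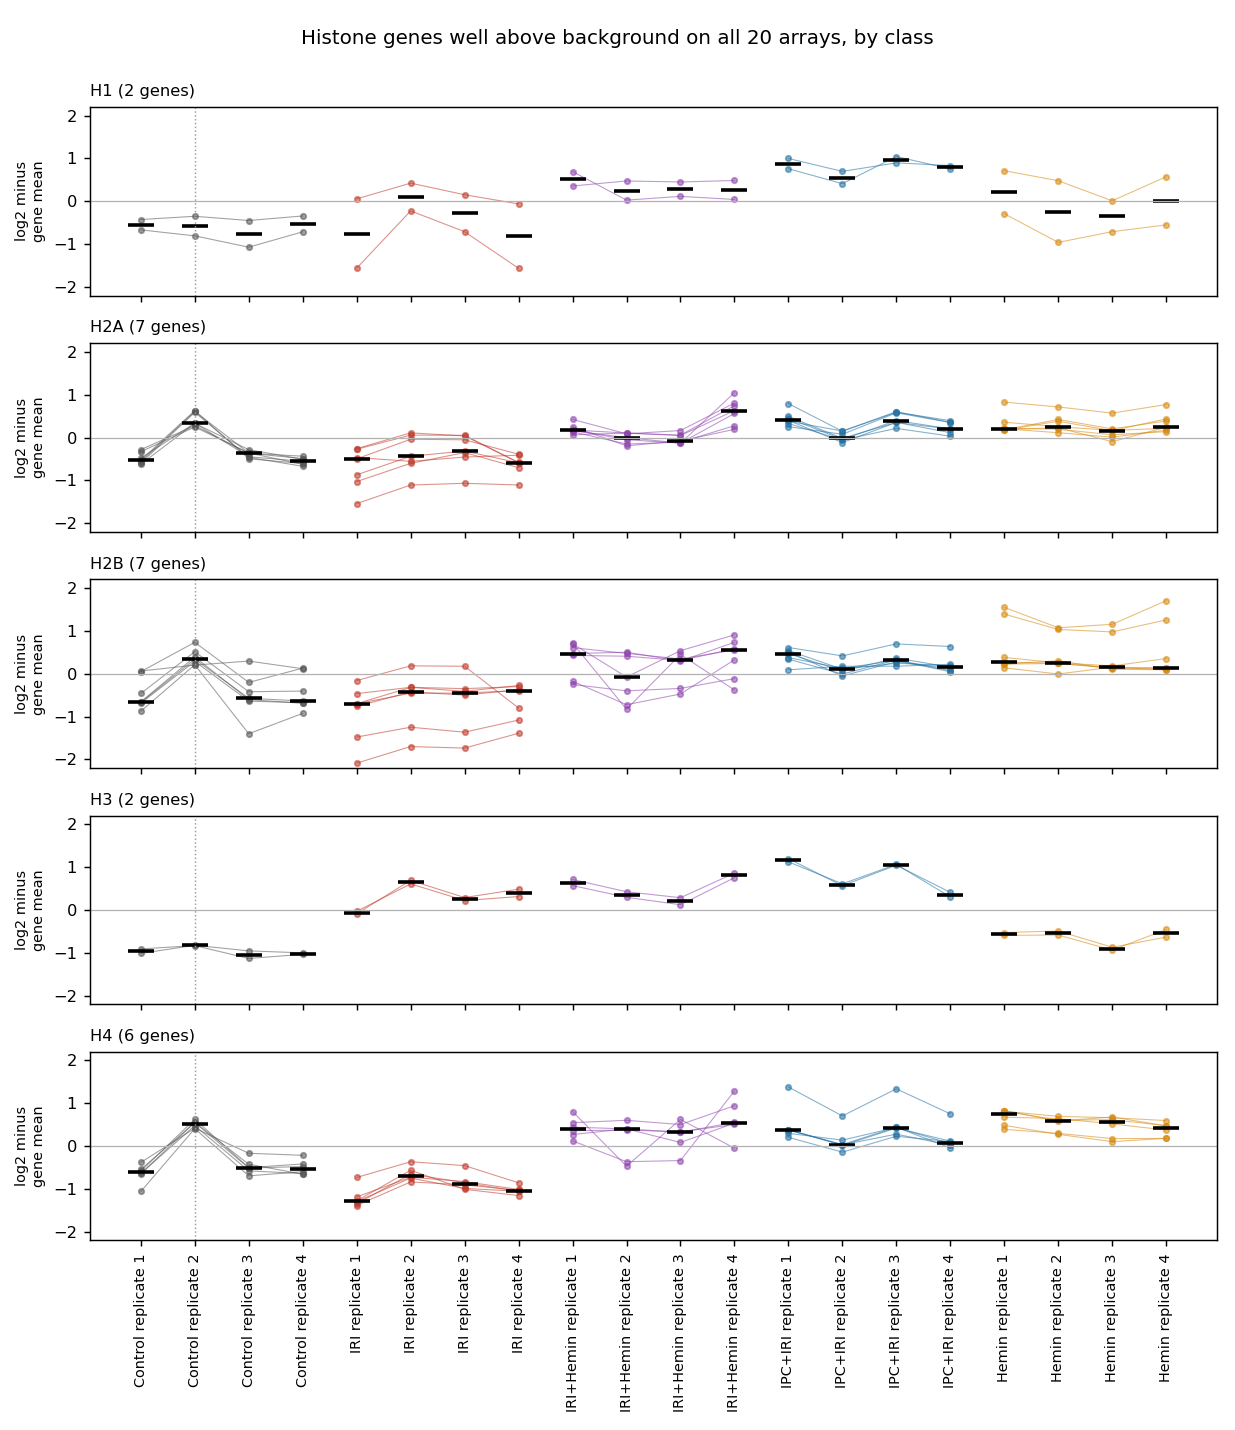
Deviation of each histone gene from its mean over the 20 arrays (y axis, log2 units) on each array (x axis), in 1 panel per class, with joined points for a gene within a group, black bars for the class median and a dotted line at Control replicate 2; the panels hold 2 (H1), 7 (H2A), 7 (H2B), 2 (H3) and 6 (H4) genes. The H2A, H2B and H4 medians of Control replicate 2 lie with those of the IRI+Hemin, IPC+IRI and Hemin arrays, and its H1 and H3 medians lie with the other Controls.

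RNAs that carry no poly(A) tail were followed beside the histone genes. Of 23 names listed, 7 were on the array. Rn18s, the 18S ribosomal RNA, measured 5.14, 7.74, 4.55 and 4.95 in Control replicates 1 to 4, 3.16, 5.25, 6.11 and 5.22 in IRI, 7.59, 7.56, 7.23 and 7.67 in IRI+Hemin, 8.05, 7.41, 7.56 and 7.59 in IPC+IRI and 7.53, 7.43, 7.41 and 7.60 in Hemin. IRI and 3 Control arrays were low, and Control replicate 2, at 7.74, was not. Rn18s differed by 2.72 (SE 0.56, adjusted p = 0.000956) in IPC+IRI vs IRI, by 2.58 (SE 0.57, adjusted p = 0.00142) in IRI+Hemin vs IRI and by -0.66 (SE 0.56, adjusted p = 0.345) in IRI vs Control. The last difference did not pass, and its sign rests on Control replicate 2. In the deposited matrix the first difference was 1.01 (adjusted p = 0.636), so that call was lost.

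LOC236598, a ribosomal RNA entry of the array annotation, measured -3.64, -0.46, -3.98 and -3.80 in Control replicates 1 to 4, -5.14, -4.01, -3.49 and -3.47 in IRI, -0.23, 0.43, -0.29 and -0.25 in IRI+Hemin, 0.51, 0.75, 0.89 and 1.01 in IPC+IRI and 0.85, 0.66, 1.02 and 0.26 in Hemin. Control replicate 2 was again the high Control array, at -0.46. LOC236598 rose by 4.82 (SE 0.56, adjusted p = 9.08e-06) in IPC+IRI vs IRI and by 3.94 (SE 0.56, adjusted p = 3.96e-05) in IRI+Hemin vs IRI. Under the alternatives these differences ran from 2.15 to 5.13 and from 1.46 to 4.31, with the calls kept, so their size depends on the processing. The summed level of the 7 RNAs was 4.61 to 7.76 in Control, with replicate 2 at 7.76, 3.29 to 6.13 in IRI, 7.25 to 7.68 in IRI+Hemin, 7.43 to 8.06 in IPC+IRI and 7.44 to 7.62 in Hemin. Called genes of the list were 0 higher and 1 lower of 6 in IRI vs Control, 4 and 0 of 7 in IPC+IRI vs Control, 2 and 1 of 7 in IPC+IRI vs IRI, 4 and 0 of 7 in IRI+Hemin vs IRI, and 3 and 0 of 7 in Hemin vs Control. The shares of all genes called higher and lower in these comparisons, against which counts of this and the following lists stand, were 17.1% and 33.9%, 23.3% and 32.7%, 26.3% and 17.9%, 26.3% and 18.1%, and 18.5% and 17.6% in the same order. How much of the histone differences goes with the labelling of RNA without a poly(A) tail was not tested.

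Of 12 variant histone genes on the array, which give polyadenylated mRNA, 2 rose and 1 fell in IRI vs Control, against 17.1% and 33.9% of all genes. They were 7 higher and 0 lower in IPC+IRI vs IRI, against 26.3% and 17.9%, 4 and 0 in IRI+Hemin vs IRI, 6 and 1 in IPC+IRI vs Control, and 5 and 0 in Hemin vs Control. H3f3b, which encodes H3.3, measured 4.12, 4.25, 4.06 and 4.11 in Control replicates 1 to 4, 5.20, 5.80, 5.35 and 5.38 in IRI, 5.82, 5.54, 5.45 and 6.01 in IRI+Hemin, 6.41, 5.97, 6.37 and 5.69 in IPC+IRI and 4.64, 4.64, 4.41 and 4.83 in Hemin. As with Hist1h3d, all ischemia arrays lay above all Control and Hemin arrays. It rose by 1.30 (SE 0.17, adjusted p = 6.66e-06) in IRI vs Control, while H3f3a, which encodes the same protein, gave -0.06 (SE 0.14, adjusted p = 0.73). H1f0, the linker histone of differentiated cells, rose by 0.80 (SE 0.16, adjusted p = 0.000458) in IRI vs Control. H1fx, another linker variant, was low in IRI, with -1.44 (SE 0.43, adjusted p = 0.00957) in IRI vs Control and 2.42 (SE 0.43, adjusted p = 0.000265) in IPC+IRI vs IRI. H2afz, the H2A.Z gene, rose by 0.82 (SE 0.16, adjusted p = 0.000551) in IPC+IRI vs IRI.

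**Figure D4:**
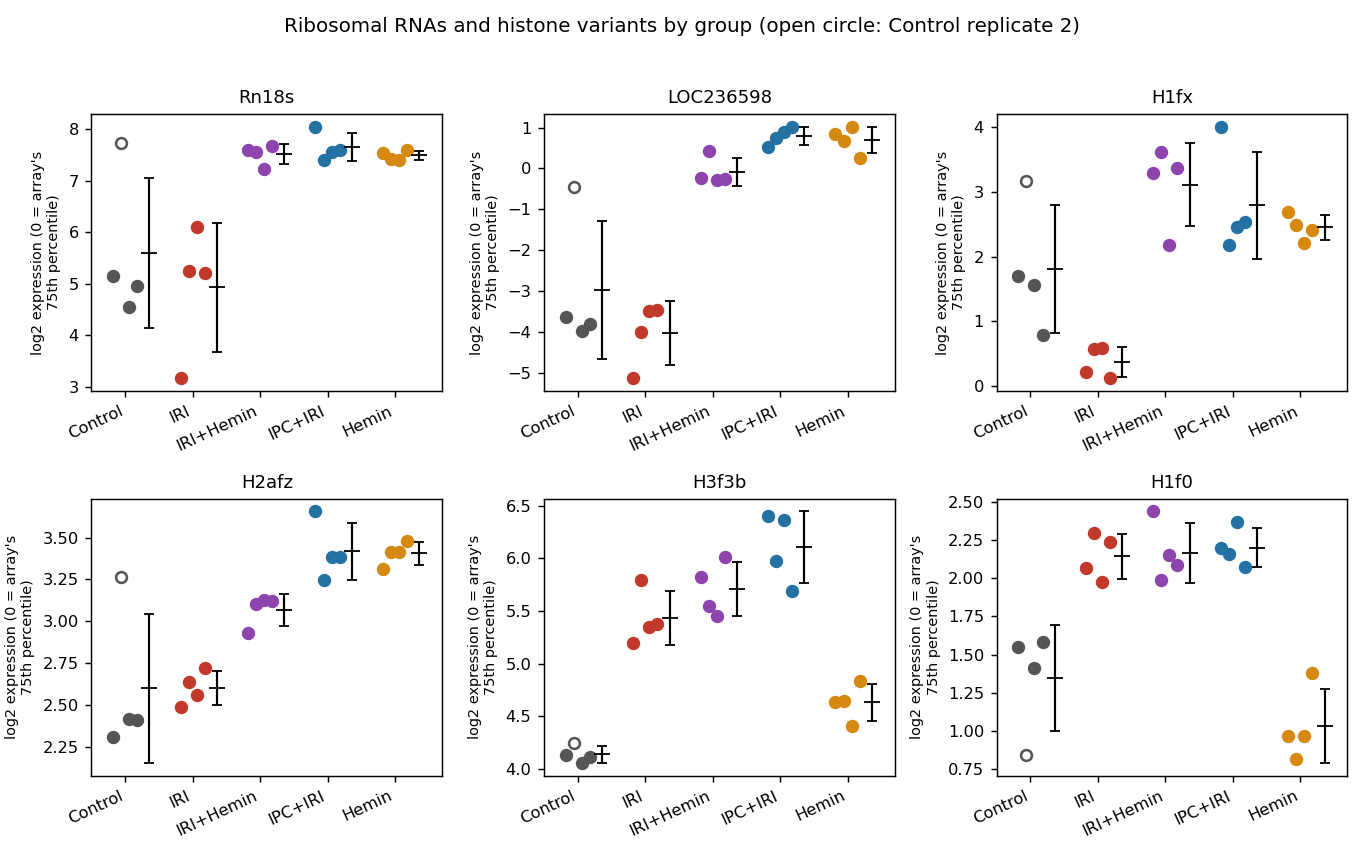
Log2 level (0 at the 75th percentile of the array) of 2 ribosomal RNAs and 4 variant histone genes on the 20 arrays, 1 panel per gene and 5 groups on the x axis; points are arrays, bars are the mean and SD of 4 arrays, and the open circle is Control replicate 2. The Rn18s and LOC236598 panels show Control replicate 2 with the IRI+Hemin, IPC+IRI and Hemin arrays, and the H3f3b panel shows the ischemia arrays above the rest.

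Base composition of the probes was set beside the histone levels. The histone probes had a median of 50.8% G and C, against 40% over all probes. On Control replicate 2, the 8 histone probes above 60% lay 0.56 above their mean over the arrays, the 21 at or below 60% lay 0.34 above it, and other probes above 60% lay 0.53 above it. On the other Controls, the first 2 medians were -0.41 to -0.55 and -0.57 to -0.66, and those of other probes above 60% were -0.10 to 0.19. On the IRI arrays they were -0.49 to -0.91, -0.40 to -0.75 and -0.23 to -0.65. The histone probes at or below 60% shifted on these arrays as well, and the part of base composition was not tested.

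**Figure D5:**
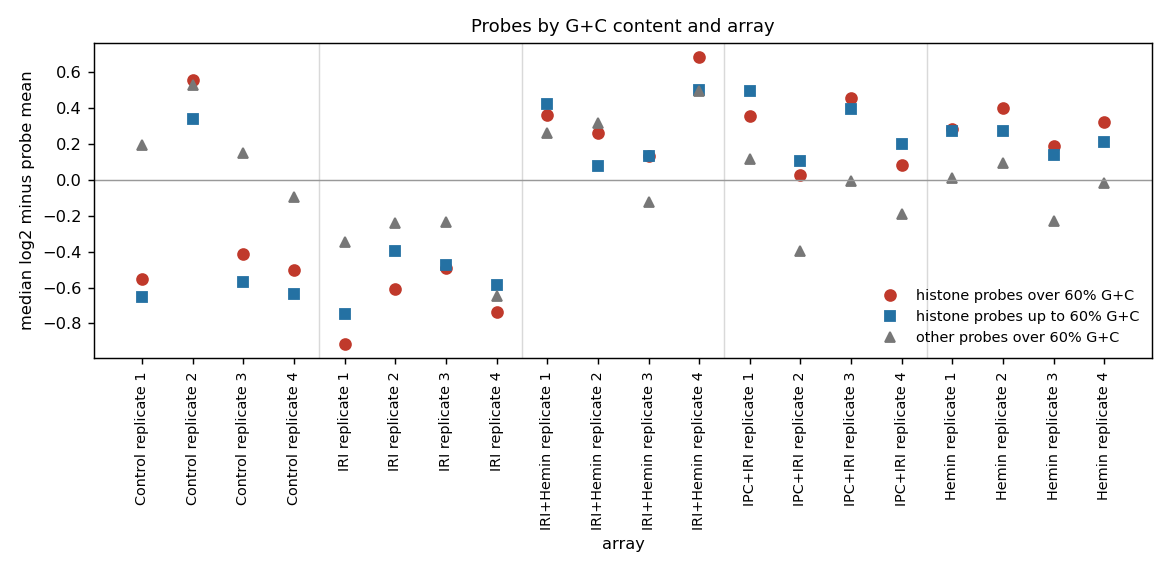
Median deviation, in log2 units from each probe's mean over the 20 arrays, of histone probes above 60% G and C (8 probes), histone probes at or below 60% (21 probes) and all other probes above 60%, by array. Control replicate 2 is positive in all 3 series, at 0.56, 0.34 and 0.53, and the IRI arrays are negative in all 3.

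Genes that serve histone mRNA were counted as a list, of which 14 were on the array and tested. In IRI vs Control 1 rose and 4 fell, in IPC+IRI vs IRI 5 rose and 3 fell, and in IRI+Hemin vs IRI 4 rose and 1 fell. These counts lie near the shares of all genes (17.1% and 33.9%, 26.3% and 17.9%, and 26.3% and 18.1%) and are not a result about the list. Slbp was called in no comparison, and its 20 levels lay between 0.75 and 1.42. Lsm11 of the U7 particle rose by 1.12 (SE 0.16, adjusted p = 1.84e-05) in IRI vs Control, whereas Lsm10 differed by -0.62 (SE 0.18, adjusted p = 0.0085). Lsm10 rose by 0.71 (SE 0.18, adjusted p = 0.00462) in IPC+IRI vs IRI. Npat, which switches on histone transcription, rose by 1.2 (SE 0.27, adjusted p = 0.0011) in IPC+IRI vs Control and gave 0.35 (SE 0.27, adjusted p = 0.295) in IRI vs Control.

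Of 27 S phase genes on the array, 2 rose and 7 fell of 24 tested in IRI vs Control, against 17.1% and 33.9% of all genes. In IPC+IRI vs IRI 16 rose and 0 fell of 25, against 26.3% and 17.9%, and in IRI+Hemin vs IRI 8 rose and 3 fell of 24, against 26.3% and 18.1%. In IPC+IRI vs Control 11 rose and 1 fell of 25, against 23.3% and 32.7%, and in Hemin vs Control 14 rose and 0 fell of 24, against 18.5% and 17.6%. The counts in IRI vs Control and IRI+Hemin vs IRI lie near the shares of all genes. Pcna, the sliding clamp of DNA polymerase, was higher in the first-named group of all 6 comparisons, by 0.46 in IRI vs Control (adjusted p = 0.00391) and 0.75 in IRI+Hemin vs IRI (adjusted p = 0.000109). Pola1, a subunit of the polymerase that starts DNA strands, differed by -1.19 (SE 0.22, adjusted p = 0.000268) in IRI vs Control and by 2.06 (SE 0.22, adjusted p = 5.87e-06) in IPC+IRI vs IRI. Mcm5, of the replicative helicase, gave -0.26 (SE 0.22, adjusted p = 0.356) and -0.05 (SE 0.22, adjusted p = 0.862) in these comparisons.

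Mitosis markers were counted in the same way. They were 0 higher and 2 lower of 8 tested in IRI vs Control, against 17.1% and 33.9% of all genes, and 6 and 0 of 9 in IPC+IRI vs IRI, against 26.3% and 17.9%. They were 0 and 0 of 8 in IRI+Hemin vs IRI, against 26.3% and 18.1%, 2 and 1 of 9 in IPC+IRI vs Control, against 23.3% and 32.7%, 0 and 1 of 11 in Hemin vs Control, against 18.5% and 17.6%, and 0 and 0 of 11 in IPC+IRI vs Hemin, against 13.2% and 22.8%. In IRI and in IRI+Hemin, 4 of the 12 mitosis markers on the array were well above background on no array of the group. With 8 tested, the 0 called in IRI+Hemin vs IRI is not a result about the list. Of 10 histone chaperones, which carry histones to DNA, 1 rose and 3 fell in IRI vs Control, against 17.1% and 33.9% of all genes, 6 rose and 0 fell in IPC+IRI vs IRI, against 26.3% and 17.9%, and 4 rose and 1 fell in IRI+Hemin vs IRI, against 26.3% and 18.1%. Asf1a, a chaperone of H3 and H4, was higher in the first-named group of all 6 comparisons, by 1.07 in IPC+IRI vs Control (adjusted p = 7.09e-06).

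Promoters of the histone genes were read from RefSeq (build GRCm38.p6) for the 30 of 36 genes with a promoter entry, in windows of 300 bases around the start site. All 36 genes matched RefSeq by name. Letters were searched on both strands. CCAAT was present in 27 of the 30 (90%), against 37.9% of 27025 promoters of the same length. It was in all 10 H2A and all 7 H2B promoters but in 2 of 5 H4 promoters. TATAAA was in 20 (66.7%), against 14.2%. ATTTGCAT, the octamer bound by Oct factors, was in 10 (33.3%), against 1.75%, namely in 6 of 10 H2A and 4 of 7 H2B promoters and in 0 of the H1, H3 and H4 promoters. These matches are letters in a window and were not measured as binding sites.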

How the data were processed

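Per the file headers, Agilent Feature Extraction 9.5.3.1 made the deposited intensity of each spot by subtracting a background, with no step between arrays. The authors also deposited a log2 matrix of the same signal, 18.1% blank, of which 100% of values lay within 0.001 of the scanner signal over 40929 probes with a single spot. From 43379 non-control spots, those marked uneven or outlying were left out. Means were taken over the spots of a probe, signals were scaled to the 75th percentile of the array, and the log2 of the mean over a gene name's probes was the level.

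A gene was tested with no more than 1 missing value among 8 arrays and with a signal well above background on 3 or more of 4 arrays in either group. The software was R (4.3.3) with limma (3.58.1) and data.table (1.17.8), and the fit held all 20 arrays, 5 group means and 15 residual degrees of freedom. Benjamini-Hochberg adjustment covered all genes tested in each of 6 comparisons, and calls needed an adjusted p below 0.05. The study's methods used SAM with fold cutoffs. IPC+IRI vs Hemin was added to the study's comparisons because both groups were scanned on 1 day. A bound ("at least N-fold") sets a bright group against the lowest signals of any probe well above background on the dim arrays. It holds for this background correction only. Fits were tested on simulated data. Genes named are those in the study's tables, those called at 2-fold or more with groups apart, the gene with the highest mean level in each class and the ribosomal RNAs; other names were chosen after their values were seen. The members, lists and tests were chosen with earlier results of these data known.

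Alternatives were normexp (offset 50), no scaling, quantile and other scalings, the brightest probe, the mean of log2 values, the deposited matrix, other filters, a fit of the 8 compared arrays, a replicate block, each array left out, and the scan day as a block. Precision is limited by 4 arrays per group. Same-numbered arrays of the compared groups did not deviate together in every pair (correlations of -0.379 to 0.145), so replicate numbers were not taken as pairs. The slide could not be fitted as a random block.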

Additional observations from a re-analysis of the deposited data

Results flagged for a closer look

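Sets of 4 arrays were checked for outlying values. The genes share arrays and some share probe sequence, so the sets are not independent and no excess over chance is read from them. Of 105 sets of 4 arrays (21 named genes in 5 groups), 10 (9.52%) held an array whose gap to the nearest of the others passed Dixon's critical value, where chance gives about 1 in 20, and 5 of the 10 were Control replicate 2. Those were its log2 level of 2.96 for Hist3h2a (others 1.73 to 1.84), 1.34 for Hist1h4d (others 0.13 to 0.30), 2.58 for Hist1h4f (others 1.49 to 1.56), 1.17 for Hist2h4 (others 0.05 to 0.12) and -0.46 for LOC236598 (others -3.98 to -3.64). The other sets were Hist3h2a on IRI replicate 1 at 0.79, Hist1h2al on IRI replicate 2 at -5.30, Hist1h2ab on IRI replicate 4 at -6.96, Hist1h1e on IRI+Hemin replicate 1 at -0.44 and LOC236598 on IRI+Hemin replicate 2 at 0.43. Hist1h2al and Hist1h2ab were well above background on 0 IRI arrays, so their values there are not measured levels.

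The difference between IRI+Hemin and Hemin was set against that between IRI and Control for each gene. In limma it passed for 2 of 29 histone genes, both positive, against 5.83% of all genes. Hist1h1b had an interaction of 1.72 (SE 0.38, adjusted p = 0.0104) and Hist1h2al of 1.45 (SE 0.38, adjusted p = 0.0248). Both genes were well above background on no IRI array, so these values are not measured sizes.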

How the results depend on the processing

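Background correction by normexp gave 3 genes lower in IRI vs Control, 0 lower in IPC+IRI vs Control, 9 higher and 0 lower in Hemin vs Control, 1 lower in IPC+IRI vs Hemin and 0 with a positive interaction. Without scaling the counts were 7 lower in IRI vs Control, 26 higher and 0 lower in Hemin vs Control and 1 with a positive interaction. The medians of all genes then moved to -0.05 in IRI vs Control, 0.35 for IPC+IRI and 0.62 for Hemin against Control, 0.41 for IPC+IRI and 0.45 for IRI+Hemin against IRI, and -0.28 for IPC+IRI against Hemin. A fit of the 8 compared arrays gave 10 higher and 2 lower in IPC+IRI vs Control and 6 lower in IPC+IRI vs Hemin. The 75th percentile of probes well above background gave 2 lower in IPC+IRI vs Control. The deposited matrix gave 0 lower in Hemin vs Control and 1 with a positive interaction, and quantile normalization also 1. With no filter the genes lower were 3 in IPC+IRI vs Control, 1 in IPC+IRI vs IRI, 1 for IRI+Hemin against IRI and 2 for Hemin against Control, and with all 8 arrays well above background 0 in IPC+IRI vs Control. No shares of all genes are set beside the counts of this section, so they are not results about the histone genes. The causes were not tested.

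With each array left out in turn, IRI vs Control had 3 to 3 genes higher and 9 to 12 lower. IPC+IRI against Control had 9 (without IPC+IRI replicate 3) to 25 (without Control replicate 2) higher and 1 to 2 lower (2 without IRI+Hemin replicate 4). IPC+IRI against IRI had 18 to 26 higher and 0 to 0 lower, and IRI+Hemin against IRI 17 to 20 higher and 0 to 1 lower (1 without IRI replicate 4). Hemin against Control had 10 (without Control replicate 4) to 23 (without Control replicate 2) higher and 0 (without Control replicate 1) to 1 lower, and IPC+IRI against Hemin 3 to 4 higher and 1 (without IPC+IRI replicate 1) to 5 (without Control replicate 2) lower.

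With the replicate number as a block, the counts higher and lower were 3 and 10 in IRI vs Control, 18 and 1 for IPC+IRI and 14 and 1 for Hemin against Control, 21 and 0 for IPC+IRI and 18 and 0 for IRI+Hemin against IRI, and 3 and 2 for IPC+IRI against Hemin. With genes of shared probe sequence counted once, an alternative chosen after seeing the data, they were 3 and 8, 15 and 1, 12 and 1, 18 and 0, 13 and 0, and 3 and 2 in the same order.

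Of 2329 values of the 76 named differences under all alternatives, 2198 kept their direction and call. Another 121 kept the direction only, and 10 changed direction. Several alternatives leave a difference as it was and can change only its call, so the count of kept directions is partly fixed in advance. They are the omission of an array outside the comparison, no filter, a fit of only the compared arrays and the replicate block. Hist1h1e in IRI vs Control, for example, stayed at -0.62 where its call was lost under these. Of the 95 calls among histone genes in the 6 comparisons, 40 had a difference smaller by over 1.5 times with normexp. All 10 changes of direction came under normexp in dim genes. Hist1h1b was at -0.071 and -0.15 for IPC+IRI and Hemin against Control, and at -0.22 and -0.28 for IPC+IRI and IRI+Hemin against IRI. Hist1h1t was at -0.16, -0.23, -0.36 and -0.44 in the same order. Hist1h2ab was at -0.32 and Hist1h1d at -0.30 for IPC+IRI against IRI. The scan day as a block gave the same values for both comparisons within a day by construction and was not run for the others, whose groups differ in day.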
